A study of Mus musculus with 6 samples.

Results

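The sarcomeric myosin heavy chain genes that define muscle fiber types were followed in the tibialis anterior (TA) muscle of aged mice. Myh4, Myh1, Myh2, Myh7, Myh3, Myh8, Myh6 and Myh7b were taken from the raw count table by gene symbol and are 8 of the 55416 genes counted. RNA sequencing compared 3 WT with 3 SELENOW KO mice to ask how loss of this selenoprotein changes gene expression in aging muscle. The KO allele was made with CRISPR-Cas9 and a pair of guide RNAs that removed exon 4 of Selenow. Both groups were on the C57BL/6N background and aged naturally, without drug treatment, to 24 months by the sample labels, and the methods describe the aged mice as male. The deletion is carried by the whole animal, so fibers and the other cells of the muscle lack the exon alike. Each library was made from whole muscle, and no fiber type was separated before sequencing.

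The myosin heavy chain is the motor of the thick filament, and the isoform a fiber makes sets how fast it shortens and how much ATP it spends. Adult mouse limb fibers are named by it: type I fibers carry Myh7, type IIA Myh2, type IIX Myh1 and type IIB Myh4, from slow and oxidative to fast and glycolytic. Myh3 and Myh8 are the embryonic and perinatal isoforms, Myh6 is the fast isoform of the heart, and Myh7b is an ancient relative found in slow fibers, heart and brain. The TA of the mouse is a fast muscle dominated by IIB and IIX fibers.

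The WT libraries, replicates 1 to 3 in order, held 25351976, 29111213 and 25398186 counts, and the KO libraries 27815342, 27345022 and 27637175. Of these, 37.3%, 29.1% and 29.8% in WT and 40.3%, 38.2% and 35.4% in KO came from genes of the mitochondrial genome. Values below follow the same order of replicates. Selenow, the targeted gene, stood at 268, 245 and 219 CPM, scaled by TMM factors, in WT and 193, 212 and 209.9 CPM in KO. Every KO library lay below every WT library, and the log2 fold change was -0.25 with a standard error of 0.14 (edgeR, adjusted p = 0.604). Such a lack of overlap, in either direction, held for 15.4% of all genes tested. Counts are given per gene, and which exons the KO reads came from was not tested. The level of Selenow is therefore a weak check of genotype. Loss of the protein from KO skeletal muscle was reported by the study from a Western blot. Skeletal fiber markers (Ckm, Acta1, Actn3, Mylpf, Tnnt3 and Pvalb) summed to 42542 to 54082 CPM in every library. Of the heart muscle markers, Myl7 had no count in any library, and Nppa, Nppb, Tnni3 and Ryr2 with it summed to at most 0.748 CPM.

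The 8 genes together held 4.21% to 6.51% of all counts, and 6.72% to 9.21% of the counts of nuclear genes. Myh4 ranked 1 or 2 among nuclear genes in each library. Per kb of counted length, its level was 6388 ± 1036 CPM per kb (SD, n = 6 libraries), followed by Myh1 at 1549.9 ± 162, Myh8 at 332 ± 73.3, Myh2 at 165 ± 30.5 and Myh3 at 9.32 ± 6.93 CPM per kb. Each of these was above the next in 6 of 6 libraries, with no overlap of their ranges. Myh6 at 0.374 ± 0.148, Myh7b at 0.299 ± 0.0914 and Myh7 at 0.257 ± 0.125 CPM per kb overlapped, and their order is not set by these libraries.

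**Figure D1:**
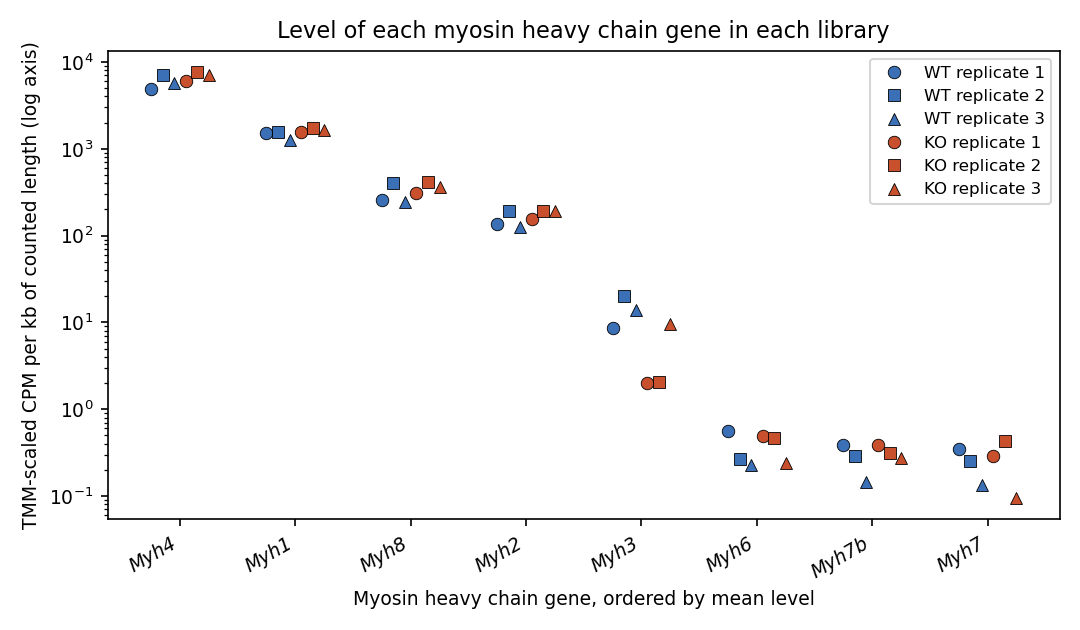
TMM-scaled CPM per kb of counted length of each myosin heavy chain gene (log axis), with 1 point per library, blue for WT and red-orange for KO. Levels run from 6388 CPM per kb for Myh4 to 0.257 for Myh7 on average, and the genotypes overlap for every gene on this scale.

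None of the 8 genes was a differentially expressed gene (DEG) between KO and WT. A DEG had an unadjusted p under 0.05 in the edgeR quasi-likelihood test and a ratio above 1.5 or below 0.7. By the same thresholds, 836 of the 15623 genes tested were DEGs (5.35%), 491 lower in KO (3.14%) and 345 higher (2.21%). All 8 passed the filter on low counts. At an adjusted p under 0.05, edgeR called 0 of the 15623 genes (0%), although 1545 had an unadjusted p under 0.05. At that adjusted level DESeq2 called 45, none of them among the 8. At the DEG thresholds, DESeq2 called 1 of the 8, Myh3, and 4.94% of all genes tested. The adjusted p of the 8 in edgeR ran from 0.613 to 0.950. The median log2 fold change of the 8 was 0.22, with 7 above 0 and 1 below, beside -0.00 over all genes tested. Without WT replicate 3 the 8 were split 4 and 4 (median 0.04) and without KO replicate 2 they were split 6 and 2 (median 0.14), and without KO replicate 3 the number of DEGs among them was 1, Myh3. None had non-overlapping genotypes in CPM, against 15.4% of the genes tested. In whole muscle, fewer fibers of a type and less RNA per fiber cannot be told apart.

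Among the adult fast isoforms, Myh4, the chain of type IIB fibers, had 29623, 42872 and 34114 CPM in WT replicates 1, 2 and 3 and 35836, 46028 and 42121 CPM in KO replicates 1, 2 and 3. WT replicate 1 was the lowest and KO replicate 2 the highest, and the other 4 libraries interleaved. Its log2 fold change was 0.22 (standard error 0.20, adjusted p = 0.751 from edgeR). It was 0.10 without WT replicate 1, 0.38 without WT replicate 2 and 0.14 without KO replicate 2. With mitochondrially encoded genes left out of the fit it stayed 0.22.

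Myh1, the chain of type IIX fibers, had 9651, 9933 and 8028 CPM in WT and 9903, 11102 and 10464 CPM in KO. Only WT replicate 3 stood clearly lower, and KO replicate 1 lay between WT replicates 1 and 2. The log2 fold change was 0.19 (standard error 0.17, adjusted p = 0.745 from edgeR), and 0.10 without WT replicate 3. Myh2, the chain of type IIA fibers, had 964, 1373 and 890.4 CPM in WT and 1104, 1359.7 and 1354 CPM in KO. WT replicate 2 was the highest of all 6 and the other WT libraries the lowest, so the WT range enclosed the KO range. The log2 fold change was 0.24 (standard error 0.19, adjusted p = 0.705 from edgeR). Without WT replicate 2 it was 0.46, with an unadjusted p of 0.0289 in edgeR, below the fold required of a DEG, and without WT replicate 3 it was 0.12. Across the 6 libraries Myh2 varied with Myh4 (Pearson r = 0.902), and Myh1 with Myh2 (0.829) more closely than with Myh4 (0.623). These are descriptions over 6 libraries that share the same scaling.

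Myh4, Myh1 and Myh2 lie side by side with Myh3, Myh8 and Myh13 on the plus strand of chromosome 11. In GRCm38 (GENCODE M21) Myh3 spans chr11:67078300-67102291, Myh2 chr11:67171027-67197517, Myh1 chr11:67200052-67224575, Myh4 chr11:67238029-67260446 and Myh8 chr11:67277124-67308634. Their promoters are shown because these neighboring genes differ widely in level. RefSeq (GRCm38.p6) has promoter sequence for all 8 genes and Myh13. The bases from 170 to 21 before the RefSeq start are printed 5′ to 3′. Capitals mark CTANNNNTA on either strand, and TATAAA where it starts 40 to 20 bases before the start. CTANNNNTA takes any base at N, so it is looser than the AT-rich sites that MEF2 factors bind. A marked stretch need not be AT-rich.
Myh4, chr11:67237642-67237791, plus strand: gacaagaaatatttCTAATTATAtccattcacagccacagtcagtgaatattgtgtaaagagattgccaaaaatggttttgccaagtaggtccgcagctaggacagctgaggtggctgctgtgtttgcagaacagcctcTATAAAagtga
Myh1, chr11:67199932-67200081, plus strand: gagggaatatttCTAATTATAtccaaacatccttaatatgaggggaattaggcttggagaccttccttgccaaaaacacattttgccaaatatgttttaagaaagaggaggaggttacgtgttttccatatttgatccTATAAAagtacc
Myh2, chr11:67170857-67171006, plus strand: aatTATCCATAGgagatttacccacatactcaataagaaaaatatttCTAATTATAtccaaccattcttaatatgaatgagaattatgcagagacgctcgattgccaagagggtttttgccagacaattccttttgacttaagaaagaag
Myh8, chr11:67276954-67277103, plus strand: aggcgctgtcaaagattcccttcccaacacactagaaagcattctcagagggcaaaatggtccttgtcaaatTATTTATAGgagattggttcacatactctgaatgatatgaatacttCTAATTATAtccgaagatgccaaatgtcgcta
Myh3, chr11:67078130-67078279, plus strand: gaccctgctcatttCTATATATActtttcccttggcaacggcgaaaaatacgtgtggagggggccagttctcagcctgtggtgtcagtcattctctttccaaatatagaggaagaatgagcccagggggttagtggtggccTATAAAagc
The letters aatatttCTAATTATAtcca, 20 bases, are the longest run that the promoters of Myh4, Myh1 and Myh2 share before the start. They were picked for this, so their presence in these 3 was fixed in advance. On either strand they occur in 3 of all 32851 promoters of the same length. The inner CTAATTATA is in the promoter of Myh8 too, and in 50 promoters in all (0.152%). The looser CTANNNNTA is common, in 21.04% of promoters over the whole searched window. That window starts 250 bases before the RefSeq start and runs past it, so it is longer than the printed stretch. Matches outside the printed bases, such as those of Myh4 at -181, 17 and 27 from the start, are not shown. TATAAA in its usual place stands in 1.99% of promoters, and in those of Myh4, Myh1 and Myh3 but not in those of Myh2 and Myh8. A match is a description of letters, and binding was not measured.

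As a share of the summed counts of the 8 genes, Myh4 took 68.4%, 72.6% and 74.1% in WT and 71.0%, 72.6% and 72.3% in KO, or 71.7% ± 2.97 and 71.9% ± 0.854 (SD, n = 3 each). The KO values lay inside the WT range. Myh1 took 18.8% ± 2.99 in WT and 18.4% ± 1.11 in KO, and Myh2 2.16% ± 0.203 and 2.22% ± 0.0942 (SD, n = 3 each), both with overlapping genotypes. WT replicate 1 departed most from the others, with the lowest Myh4 share and the highest Myh1 share, 22.3%. The shares are not independent, since a high share of 1 gene lowers the rest. They are shares of RNA counts over all fibers, not of fibers.

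**Figure D2:**
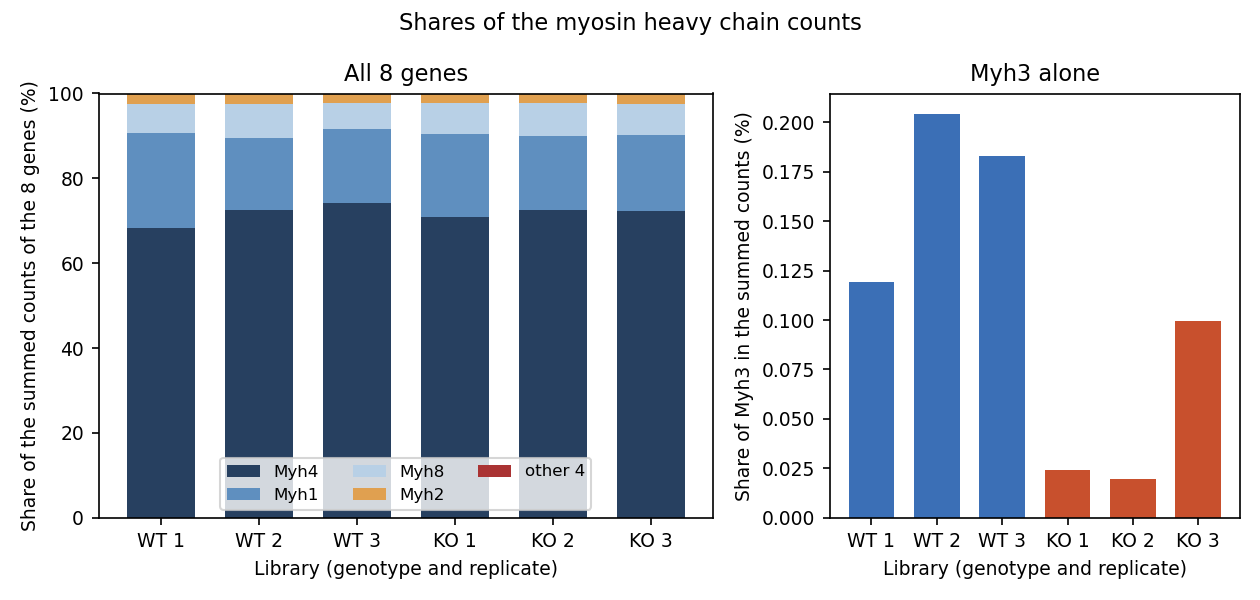
Shares of each gene in the summed counts of the 8 myosin heavy chain genes, in percent, by library; the left bars stack Myh4, Myh1, Myh8, Myh2 and the other 4 together, and the right bars show Myh3 alone, blue for WT and red-orange for KO. The Myh4 share is 68.4% to 74.1% in WT and 71.0% to 72.6% in KO, while the Myh3 share is at most 0.0994% in KO and at least 0.119% in WT. In CPM the genotypes overlap for Myh3.

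Myh3, the embryonic chain that regenerating and spindle fibers also make, had 51.6, 121 and 84.1 CPM in WT and 12.2, 12.3 and 57.9 CPM in KO. KO replicates 1 and 2 were far below every other library, while KO replicate 3 was slightly above WT replicate 1, so the genotypes overlapped. The log2 fold change was -1.63 (standard error 0.83, unadjusted p = 0.113, adjusted p = 0.613 from edgeR). Its side of the DEG thresholds depended on the fit. Myh3 was a DEG in DESeq2 (unadjusted p = 0.0425), which called 4.94% of genes, and in edgeR without robust estimation (unadjusted p = 0.0138), which called 5.88%. It was also one without KO replicate 3, at a log2 fold change of -2.80 with 5.18% of genes called. As a share of the 8 genes' counts, Myh3 made up 0.119%, 0.204% and 0.183% in WT and 0.0242%, 0.0194% and 0.0994% in KO. On this scale all KO libraries were below all WT libraries, which held for 1 of the 8 shares. The order of WT replicate 1 and KO replicate 3, reversed from that in CPM, came from the denominator. The 8 genes summed to 43315 CPM in WT replicate 1, the lowest sum, and to 58274 CPM in KO replicate 3. In CPM, 15.4% of all genes tested did not overlap between genotypes. For such a separation an exact permutation test of 3 against 3 cannot give a p below 0.1. The closest pair was WT replicate 1, from 1273 Myh3 counts (95% Wilson interval 0.113% to 0.126%), and KO replicate 3, from 1549 (0.0946% to 0.105%). These intervals cover counting error only.

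In adult muscle Myh3 is known from spindle fibers and from regenerating fibers, which arise from satellite cells. The spindle fiber markers Egr3, Etv4, Etv5 and Ntf3 summed to 4.73 ± 0.891 CPM for WT and 4.84 ± 0.586 for KO (SD over 3 libraries), most of it Etv5, with overlapping genotypes, and 0 of the 3 tested were DEGs. The satellite cell markers Pax7, Myf5, Calcr and Cdh15 summed to 8.23 ± 1.22 CPM for WT and 7.57 ± 0.867 for KO (SD over 3 libraries), most of it Cdh15, and 0 of the 3 tested were DEGs. Egr3 and Calcr were not tested because of low counts. Of all genes tested, 5.35% were DEGs. The part of either cell type in the Myh3 values was not tested.

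Myh8, the perinatal chain, had 3017, 4733 and 2902 CPM in WT and 3636, 4921 and 4272 CPM in KO. WT replicate 2 and KO replicate 2 were the highest and WT replicates 1 and 3 the lowest. The log2 fold change was 0.27 (standard error 0.21, adjusted p = 0.710 from edgeR). It was 0.53 without WT replicate 2, with an unadjusted p of 0.0215 in edgeR but below the fold required of a DEG. It was 0.16 without WT replicate 1, 0.14 without WT replicate 3 and 0.16 without KO replicate 2. Myh8 had the pattern of the adult fast genes (Pearson r = 0.939 with Myh4 over 6 libraries) and not that of Myh3, the other developmental isoform. Myh8 counts were 8.51% to 11.04% of Myh4 counts, on average 9.91% ± 1.29 for WT and 10.3% ± 0.316 for KO (SD over 3 libraries). Of the 8 genes' counts it made up 7.10% ± 0.863 (WT) and 7.43% ± 0.292 (KO; SD over 3 libraries). The counted length of Myh8 is 11772 bases, against 6149 for its longest coding transcript; its longest exon block has 2574 bases. In GENCODE M21, 2 of its 4 transcripts retain introns. Counts are given per gene, so reads in these blocks cannot be told apart from reads in coding exons, and the level of coding Myh8 RNA is uncertain.

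Myh7, the slow chain of type I fibers, was close to the floor, with 73, 70 and 35 counts in WT and 62, 90 and 22 in KO. These were 2.96, 2.18 and 1.15 CPM in WT and 2.50, 3.67 and 0.823 CPM in KO. The highest and the lowest library were both KO. The log2 fold change was 0.15 (standard error 0.55, adjusted p = 0.950 from edgeR), and it turned to -0.33 without KO replicate 2 and -0.14 without WT replicate 3. The highest value, 0.57, was that without KO replicate 3. Myh7 took 0.00141% to 0.00684% of the 8 genes' counts. Antisense to it runs Mhrt, which shares 484 exon bases with Myh7, or 5.62% of the counted Myh7 exons. The handling of strand is not stated, so reads of the pair cannot be told apart.

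Myh6, the fast heart chain next to Myh7 on chromosome 14, had 3.73, 1.77 and 1.52 CPM in WT and 3.34, 3.14 and 1.61 CPM in KO. Myh7b, on chromosome 2, had 2.60, 1.90 and 0.955 CPM in WT and 2.58, 2.08 and 1.80 CPM in KO. For both, WT replicate 1 was the highest and WT replicate 3 the lowest, and the KO libraries lay between them. The log2 fold changes were 0.22 (standard error 0.39) and 0.25 (standard error 0.33), with adjusted p of 0.886 and 0.833 from edgeR. Both directions turned without WT replicate 3, to -0.02 for Myh6 and -0.06 for Myh7b, and the highest values, 0.71 and 0.59, were those without WT replicate 1. Counts of 29 to 92 per library limit what can be read from either gene.

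Each of these 3 genes carries a microRNA in an intron, and the family is named for that link to myosin. The mature sequences (RefSeq, GRCm38.p6) are shown with the seed, bases 2 to 8, in capitals.
miR-208a-3p, in Myh6, chr14:54949072-54949093, minus strand: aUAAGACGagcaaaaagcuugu
miR-208b-3p, in Myh7, chr14:54975710-54975731, minus strand: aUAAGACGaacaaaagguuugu
miR-499-5p, in Myh7b, chr2:155622893-155622913, plus strand: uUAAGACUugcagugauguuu
miR-208a-3p and miR-208b-3p share the seed UAAGACG, and miR-499-5p has UAAGACU. Mir208b and Mir499 had no count in any library and Mir208a had 1, in WT replicate 3. How the libraries treated small RNA is not stated, so nothing is read from this about the mature microRNAs.

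Further genes of the chromosome 11 cluster were read beside the 8. Myhas, an antisense RNA that starts in front of Myh4 and ends in Myh1, had 1127, 972 and 735 CPM in WT and 1021, 1101 and 1102 CPM in KO. The genotypes overlapped, and the log2 fold change was 0.19 (standard error 0.18, adjusted p = 0.755 from edgeR). It shares 515 exon bases with Myh1, 8.11% of the counted Myh1 exons, and reads of the pair cannot be told apart. Myh2 likewise shares 237 exon bases, 3.32% of its counted exons, with the antisense RNA 9430073C21Rik, which had 72.0, 88.7 and 46.4 CPM in WT and 32.5, 61.9 and 33.5 CPM in KO. The genotypes overlapped, and its log2 fold change was -0.70 (standard error 0.34, adjusted p = 0.564 from edgeR), against 0.24 for Myh2. Myh13, the chain of eye and larynx muscles at the end of the cluster, had 795, 238 and 166 CPM in WT and 1106, 113 and 1112 CPM in KO. Both genotypes held high and low libraries, and relative to its mean the spread within each was larger than that of the adult fast genes. The log2 fold change was 0.96 (standard error 1.12, adjusted p = 0.820 from edgeR).

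**Figure D3:**
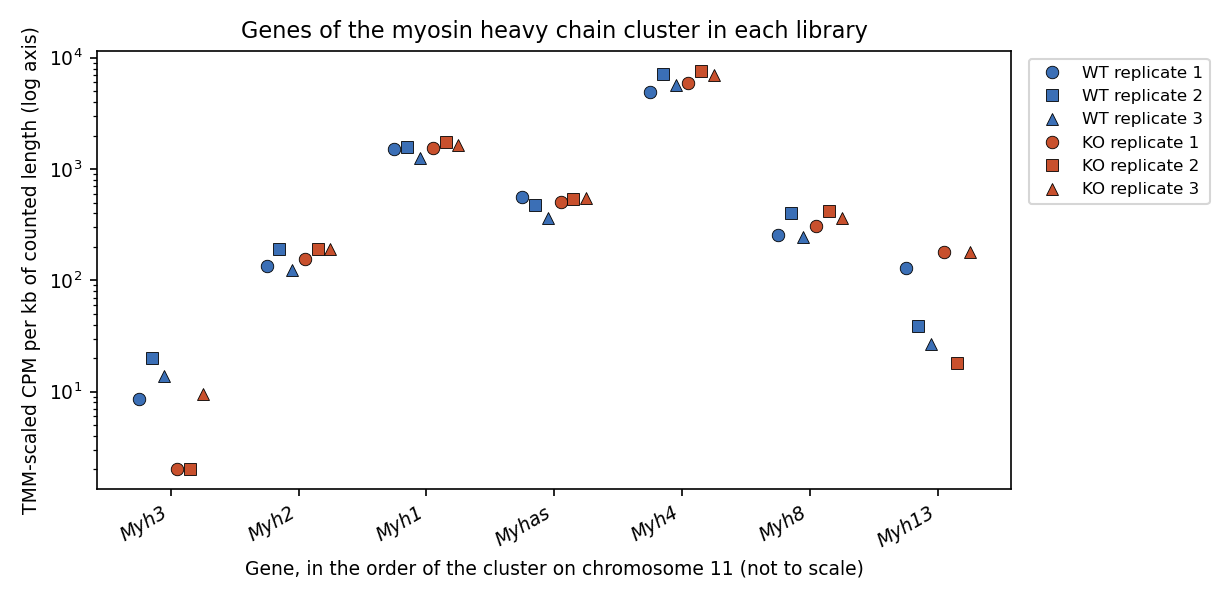
TMM-scaled CPM per kb of counted length (log axis) of the cluster genes in their order on chromosome 11, with 1 point per library, blue for WT and red-orange for KO. Myh13 runs from 18.3 to 179.9 CPM per kb and Myh3 from 2.01 to 19.9, while Myh4 stays between 4924 and 7651.

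Reads from these genes can resemble one another, which bears on each value above. Over their coding sequence Myh1 and Myh2 are 91.0% identical, Myh4 and Myh1 90.1%, Myh4 and Myh2 88.1%, Myh4 and Myh8 87.7% and Myh7 and Myh6 91.5%. Myh3 is 80.2% identical to Myh4, and Myh7b 68.9%. Of the windows of 150 bases in each transcript, the read length the methods state, 2.56% of those of Myh1, 2.08% of Myh2, 1.6% of Myh8, 0.511% of Myh4 and 0.308% of Myh3 occur unchanged in another of these transcripts or in Myh13. The shares were 5.51% for Myh7 and 5.53% for Myh6, and 0 for Myh7b. At 50 bases they were 27.4% for Myh1, 27.2% for Myh2, 21.4% for Myh8 and 18.9% for Myh4, but 4.85% for Myh3. How reads with several matches were counted is not stated, so the values of Myh1, Myh2, Myh8, Myh7 and Myh6 are the most uncertain in this respect.

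**Figure D4:**
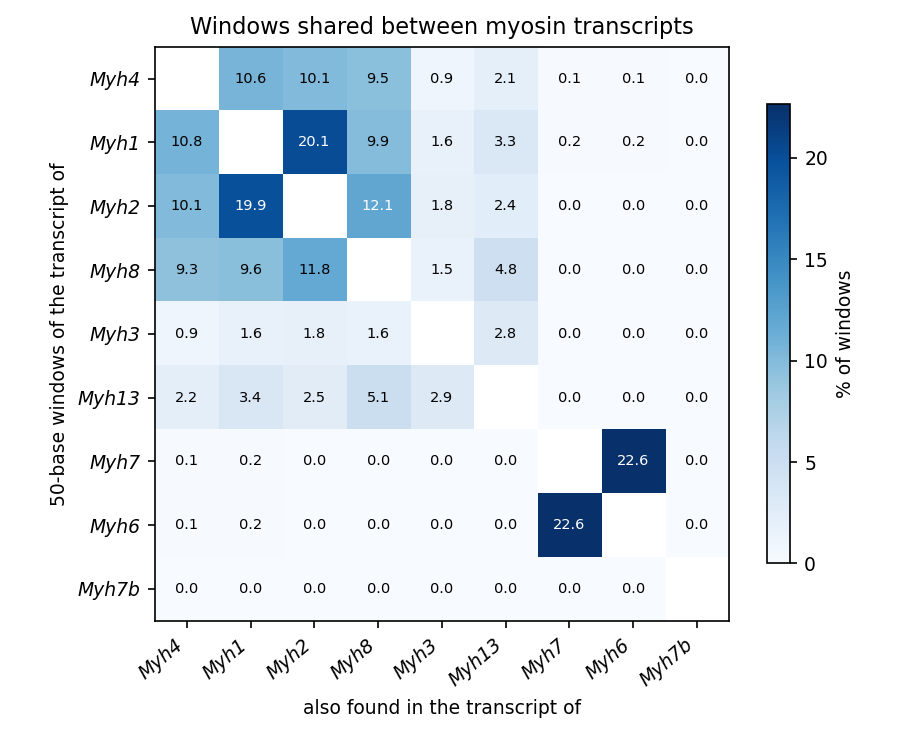
Percent of the 50-base windows of each transcript (rows) that occur unchanged in another transcript (columns), for the 8 genes and Myh13. The adult fast genes and Myh8 share most with one another, Myh7 shares 22.6% with Myh6, and Myh7b shares none.

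The myosin chains work with other isoform-specific proteins, and these were followed as lists. Of 10 slow-fiber genes, which encode light chains, troponins, a tropomyosin, calcium handling proteins and a Z-disc protein, 1 was a DEG in edgeR, Myl6b, a light chain, where 5.35% of all genes tested were DEGs. DESeq2, the tool the study used, called 6: Myl6b, Tnnc1, Tnni1, Atp2a2, Casq2 and Myoz2 (4.94% of all genes). In edgeR the number was 5 without robust estimation (5.88% of all genes) and 4 without a filter on low counts (5.6%). All 10 had log2 fold changes below 0, with a median of -0.67, while that of Myh7 was 0.15. This list too was chosen with earlier results known, and the study names Myl6b, Tnnc1 and Myoz2 as lower in KO. Its counts set beside the shares of all genes are therefore not an independent comparison. The most abundant, Casq2, a calcium store protein, had 21.6, 12.8 and 36.0 CPM in WT and 16.7, 16.7 and 10.7 CPM in KO. Myl6b had 4.34, 2.43 and 6.85 CPM in WT and 2.26, 2.69 and 2.81 CPM in KO. WT replicate 3 was the highest for both, and WT replicate 2 lay within the KO range. For Myl6b the log2 fold change was -0.81 (standard error 0.33, adjusted p = 0.477 from edgeR). The count of 1 DEG was not stable: it was 6 without WT replicate 2, 2 without KO replicate 1, and 0 without WT replicate 3, KO replicate 2 or KO replicate 3. Without WT replicate 1 it was 1, but Atp2a2, a calcium pump, in place of Myl6b. Without KO replicate 1 the 2 were Tnnc1 and Myoz2, and not Myl6b. The list's median was -0.45 without WT replicate 3.

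Of 11 fast-fiber genes, 0 were DEGs in edgeR and in DESeq2, beside 5.35% and 4.94% of all genes tested. Their median log2 fold change was -0.00, as over all genes tested. The most abundant, Tnnt3, the fast troponin T, had 11261, 15301 and 11753 CPM in WT and 12918, 13542 and 14039 CPM in KO. The KO values lay inside the WT range. Actn3, a Z-disc protein of fast fibers, had 2524, 3859 and 2795 CPM in WT and 3322, 4646 and 4380.0 CPM in KO, and the log2 fold change was 0.43 (standard error 0.20, adjusted p = 0.528 from edgeR). It was a DEG only without WT replicate 2.

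Of 9 genes of immature or denervated fibers, the company in which Myh3 is usually seen, 5 were DEGs, all lower in KO. Beside them, 3.14% of all genes tested were DEGs lower in KO and 5.35% were DEGs in either direction. The list was chosen with earlier results of these data known, and the study names Myog, Chrng and Myl4 as lower in KO. Its count set beside the share of all genes is therefore not an independent comparison. All 9 had log2 fold changes below 0 (median -1.27), and 8 without WT replicate 3, where Ncam1, an adhesion molecule, stood at 0.06. They included Chrna1 and Chrng, subunits of the acetylcholine receptor, and Myog and Runx1, transcription factors. Runx1, which denervated fibers induce, had 4.62, 5.57 and 6.49 CPM in WT and 4.23, 2.85 and 3.03 CPM in KO. All KO libraries were below all WT libraries, and the log2 fold change was -0.72 (standard error 0.21, adjusted p = 0.316 from edgeR). Of all genes tested, 15.4% did not overlap between genotypes. Chrna1 had 7.83, 10.7 and 19.1 CPM in WT and 6.53, 7.26 and 3.85 CPM in KO, again without overlap, and the log2 fold change was -1.10 (standard error 0.40, adjusted p = 0.469 from edgeR). It was no longer a DEG without KO replicate 1 or without KO replicate 3. The most abundant of the list, Actc1, the heart actin, had 69.8, 57.2 and 120.2 CPM in WT and 57.2, 51.6 and 14.6 CPM in KO and was not a DEG. KO replicate 3, the KO library with the most Myh3, had the least Actc1. The list held 7 DEGs in DESeq2 (4.94% of all genes), and in edgeR 8 without robust estimation (5.88%) and 3 of 7 tested where every library had at least 10 counts (4.82%). Leaving out 1 library at a time gave 4 to 7, and its median was -0.66 without WT replicate 3.

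**Figure D5:**
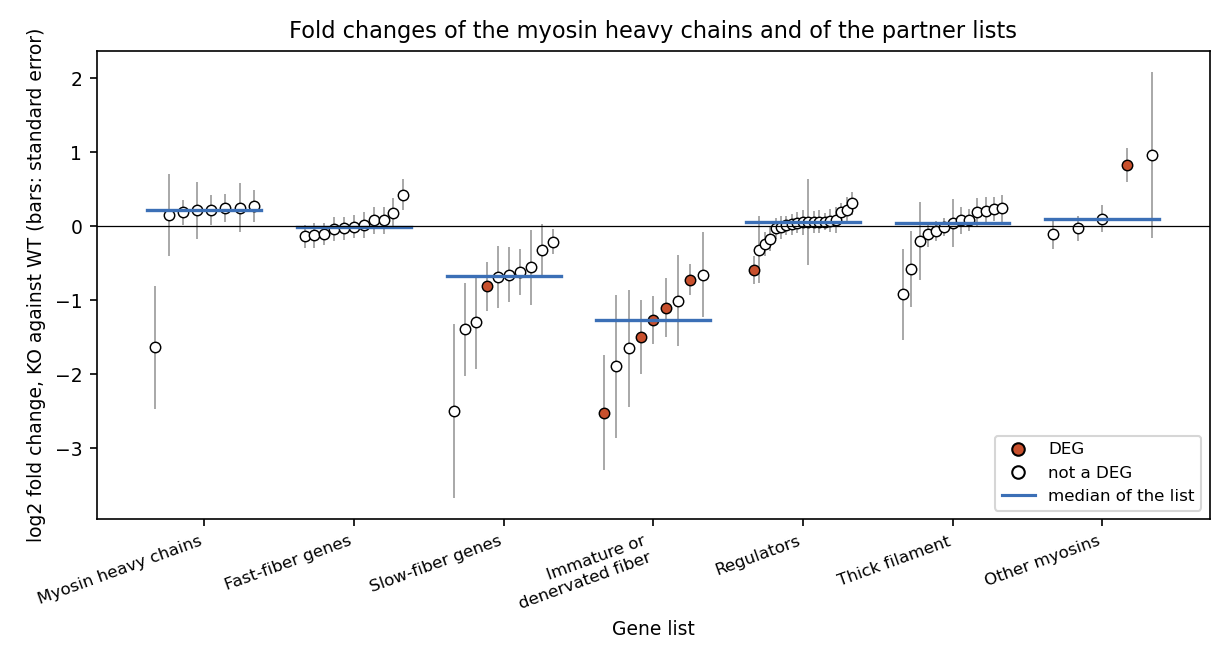
log2 fold changes of KO against WT with standard errors for the 8 myosin heavy chain genes and 6 partner lists, red-orange points marking DEGs and lines the median of each list. Medians are 0.22 for the myosin heavy chains, -0.00 for fast-fiber genes, -0.67 for slow-fiber genes and -1.27 for genes of immature or denervated fibers.

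The sums of connective tissue and leukocyte markers were also highest in WT replicate 3. The leukocyte markers Ptprc, Cd68, Adgre1, Itgam, Csf1r, Cd3e and Cd79a summed to 10.5, 10.4 and 21.8 CPM in WT and 14.3, 10.03 and 10.96 CPM in KO. Of the 6 tested, 2 were DEGs, beside 5.35% of all genes tested. Csf1r, the most abundant and a macrophage receptor, was lower in KO and Cd3e, a CD3 chain of the T cell receptor complex, higher. The median log2 fold change of the 6 was -0.61, with 2 above 0 and 4 below. Cd68, of macrophages, was highest in KO replicate 1 and Cd3e in KO replicate 3. Cd79a, of B cells, had 4 counts in KO replicate 1 and 3 in WT replicate 1, too few to rank these libraries. Cd79a had no count in WT replicates 2 and 3 or KO replicates 2 and 3. The fibroblast markers Pdgfra, Dcn, Col1a1 and Col3a1 summed to 115, 63.7 and 207 CPM in WT and 113, 55.9 and 89.9 CPM in KO, with 0 of 4 DEGs. All 4 had log2 fold changes below 0 (median -0.76), but without WT replicate 3 Dcn turned to 0.09 and Pdgfra to 0.41. Dcn was the most abundant on average, and Col3a1 in WT replicate 3. The part of these cells in the slow-fiber and immature-fiber values was not tested.

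Of 19 regulators of fiber type, 1 was a DEG, Myod1, lower in KO, where 5.35% of all genes tested were DEGs, and the median log2 fold change was 0.05. The most abundant was Mef2c, whose family binds AT-rich sites. It had 363, 394 and 476 CPM in WT and 406, 438 and 444 CPM in KO, inside the WT range. Nfix, a repressor of slow genes, and Nfatc1, a calcium-driven activator of slow genes, were higher in every KO than in every WT library without being DEGs. With Myod1, 3 of the 19 did not overlap between genotypes, where 15.4% of all genes tested did not. Their log2 fold changes were 0.31 (standard error 0.15) and 0.20 (standard error 0.12). Six4 and Eya1, activators of the fast genes, were not DEGs. Without WT replicate 3 or without KO replicate 1 the list held 0 DEGs.

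Of 13 genes that build or maintain the thick filament, 0 were DEGs in edgeR and in DESeq2. Of all genes tested, 5.35% and 4.94% were DEGs in these tools. The list's median log2 fold change was 0.05. The most abundant, Ttn, the giant ruler of the sarcomere, had 5005, 6109 and 6109 CPM in WT and 5578, 8119.7 and 6129.8 CPM in KO. Trim63, the ubiquitin ligase MuRF1 that marks myosin for breakdown, had 116, 424 and 175 CPM in WT and 166, 132 and 182 CPM in KO. WT replicate 2 alone stood high, and the log2 fold change was -0.58 (standard error 0.51, adjusted p = 0.755 from edgeR). Without that library it turned to 0.14. Myom3, an M-band protein, was a DEG only without KO replicate 1.

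Among 6 further myosin heavy chains, 5 were tested and 1 was a DEG, Myh11, the smooth muscle chain. Of all genes tested, 5.35% were DEGs and 15.4% did not overlap between genotypes. Myh11 had 9.33, 8.16 and 5.63 CPM in WT and 14.7, 16.6 and 9.65 CPM in KO. All KO libraries were above all WT libraries, and the log2 fold change was 0.83 (standard error 0.23, adjusted p = 0.33 from edgeR). The smooth muscle markers Acta2, Tagln, Cnn1, Myl9 and Smtn summed to 38.9 ± 10.2 CPM for WT and 42.6 ± 3.51 for KO (SD over 3 libraries), with overlapping genotypes, led by Smtn, and 0 of the 4 tested were DEGs. Of these, Tagln was higher in every KO than in every WT library. The endothelial markers Pecam1, Cdh5 and Kdr summed to 59.1 ± 15.7 CPM for WT and 73.3 ± 6.38 for KO (SD over 3 libraries), with overlapping genotypes. Cdh5 alone did not overlap, at a log2 fold change of 0.50, below the fold required of a DEG, while Kdr was highest in WT replicate 1. The part of vessels in the Myh11 value was not tested. The non-muscle chains Myh9, Myh10 and Myh14 were not DEGs, and the direction of each turned when libraries were left out. Myh15 had too few counts to test.

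Genes whose log2 CPM was most like that of 4 of the isoforms over the 6 libraries were looked up by rule. For Myh4 they included Gm44421 (Pearson r = 0.994) and Rest (0.992), and for Myh2 Tbx6 (0.997), Echdc3 (0.995) and Rabep2 (0.991). For Myh7 they were Shmt2 (0.986), Ndor1 (0.986) and Mir7036 (0.982), and for Myh3 Gm42858 (0.992), Zfp651 (0.983) and Ccne2 (0.980). The ranks below are among 15622 other genes. Myh8 ranked 14 among the genes most like Myh2 and 108 among those most like Myh4. Myh6 ranked 199 for Myh7, while the best rank of any of the 8 for Myh3 was 9328, for Myh2.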

How the data were processed

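RNA from the TA of 3 WT and 3 SELENOW KO mice was sequenced, and the authors deposited raw counts per gene, which they made from paired-end reads with Hisat2 and featureCounts. The submitters' processing notes name GRCm39 and the methods GRCm38. Only 1546 of the 52135 genes found in GENCODE M21 (GRCm38) have the same start and end in the table, so coordinates here come from GENCODE M21 and RefSeq. Strand and multiply mapped reads are not described in the sources used here. Libraries were grouped by their labels. One WT column has no number and was taken as replicate 1, the number the other columns leave.

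Of the 55416 genes, 52083 got a symbol through their Ensembl identifier. DEGs had an unadjusted p under 0.05 in edgeR and a KO to WT ratio above 1.5 or below 0.7, the study's thresholds. Genes were kept with filterByExpr, scaled by TMM and compared with the quasi-likelihood test of edgeR (version 4.0.16, R 4.3.3), robust estimation on, with Benjamini-Hochberg adjustment over 15623 genes. The procedure was tested on simulated data. log2 CPM used a prior count of 1. Shares were computed from raw counts. Transcripts were aligned with Biopython (version 1.88). Named genes came from the 8 members, fixed lists, the 3 most alike genes of 4 members, and Selenow, and not every gene of a list is named. The antisense neighbors Myhas, Mhrt and 9430073C21Rik were added after that rule was fixed. The members and lists were chosen with earlier results of these data known.

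Alternatives were DESeq2 (version 1.42.0), the study's tool, its size factors in edgeR, filtering off or stricter (10 or more counts in all libraries), robust estimation off, the replicate number as a block, no mitochondrially encoded genes, leaving out each library, and, for shares, counts per kb and Myh4 left out. Shares per kb of the longest coding transcript, and most alternatives for the lists, were chosen after seeing the data. Replicates differed by more than sampling noise (chi-square per degree of freedom 21.4 to 79.6), and no source says that the animals were paired.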

Additional observations from a re-analysis of the deposited data

How the results depend on the processing

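Over 13 alternative fits, 97 of 104 fold changes of the 8 genes kept their direction and their side of the DEG thresholds. Those that changed direction did so without a library: Myh7 (-0.14 without WT replicate 3 and -0.33 without KO replicate 2), Myh6 (-0.0204) and Myh7b (-0.0594), both without WT replicate 3. Leave-one-out ranges were 0.10 to 0.38 for Myh4, 0.10 to 0.25 for Myh1, 0.12 to 0.46 for Myh2, 0.14 to 0.53 for Myh8, -2.80 to -1.28 for Myh3, -0.33 to 0.57 for Myh7, -0.0204 to 0.71 for Myh6 and -0.0594 to 0.59 for Myh7b. The number of the 8 genes that were DEGs was 1 (Myh3) instead of 0 with DESeq2 and with robust estimation off, and ran from 0 to 1 when libraries were left out. The Myh3 share in KO minus that in WT was -0.121 percentage points, -0.439 with Myh4 left out of the sum, where the smaller denominator sets the change, and -0.147 to -0.103 when libraries were left out. The Myh4 difference, 0.225 percentage points, ran from -1.44 to 1.43 when libraries were left out, on both sides of 0.

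Slow-fiber DEGs numbered 1, but 6 with DESeq2, 4 without a filter, 5 with robust estimation off and 0 to 6 when libraries were left out. DEGs of immature or denervated fibers numbered 5, but 3 with at least 10 counts in every library, where fewer genes were tested, 8 with robust estimation off and 4 to 7 when libraries were left out. Otherwise the cause was not tested.

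Replicate numbers were not shown to pair the mice: same-numbered libraries correlated at 0.060, 0.044 and -0.074 after removal of group means. With the replicate number as a block, 890 genes were DEGs against 836, 0 of the 8 were, slow-fiber DEGs numbered 4, those of immature or denervated fibers 4, without Chrna1, and the Myh3 log2 fold change was -1.96 (unadjusted p = 0.0923 in edgeR). Depth limits Myh7, Myh6 and Myh7b, at 22 to 92 counts per library.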
